A study of Homo sapiens with 12 samples.

Results

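The genes described here are 10 transcription factor genes, namely the AP-1 subunits FOS, FOSB, FOSL1, FOSL2, JUN, JUNB, JUND, ATF3 and BATF3 and the immediate early factor EGR1. They were picked by gene symbol, with earlier results of these data known, from 27146 genes listed in at least 1 of 3 comparison tables. All 10 were in the SAHA table of 18534 genes and in the a6 table of 15255 genes, and 9 were in the compound 1 table of 27126 genes. EGR1 was not analysed for compound 1, because the table used here holds no row for it. The RNA came from MDA-MB-231, an established line of human triple-negative breast cancer cells, kept for 48 h with DMSO (Ctrl) or with SAHA, compound 1 or a6 at 2.5 µM. Each of the 4 groups had 3 libraries. SAHA (vorinostat) inhibits histone deacetylases. SAHA and compound 1 are labelled as single-targeting, and a6 as aimed at both histone deacetylases and G-quadruplexes (G4s), which are folds of guanine-rich DNA or RNA. All groups are 1 cell line, and the labels name biological replicates without stating separate cultures, so p-values measure the spread between these libraries, which may be technical.

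AP-1 is a dimer of basic leucine zipper proteins. A FOS subunit needs a JUN partner to bind DNA, JUN subunits also pair among themselves, and ATF3 and BATF3 can take the place of the FOS subunit. FOS, FOSB, JUN, JUNB, ATF3 and EGR1 are immediate early genes, switched on within minutes of a growth or stress signal and silenced again soon after. FOSL1 (FRA-1), in contrast, is sustained by continued ERK signalling. In mesenchymal, triple-negative breast cancer cells FOSL1 is known as a prominent AP-1 subunit that supports invasion.

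Each gene has 1 mean normalized read count (mean count below) per table, taken over the libraries compared, a log2 fold change and the standard error (SE) of that change. No value per library was used here. Depth per library is therefore unknown, and the spread of a gene between libraries can be seen only through the standard error. All 5 genes listed as high in lines of this type (VIM, CD44, AXL, KRT8 and KRT18) were in each table, with a summed mean count of 74432 to 76151 in Ctrl. ESR1 and PGR, which define hormone receptor positive tumours, had mean counts of 0.489 and 0.317 in the compound 1 table and no row in the others. ERBB2 (2103 in Ctrl in the SAHA table) and GATA3 (a mean count of 69.5 to 81.8 over the tables) were present. The haematopoietic markers PTPRC and CD3E had no row in any table. Endothelial markers summed to at most 5.61 and fibroblast markers to at most 0.378 in Ctrl.

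Regulatory sequence upstream of 5 of the genes is shown because the pathway acts through these sites: the CArG box is bound by serum response factor, and the others by AP-1 and its ATF relatives. The G4 pattern is shown because a6 is labelled as a G4 compound. RefSeq windows on GRCh38.p14, running from 250 bases before to 50 bases after an annotated start, were found for 8 of the 10 genes (9 windows, 2 of them for ATF3), and not for FOSL1 and BATF3. Both strands were searched for TGACTCA (the AP-1 site), TGACGTCA (the CRE) and TGACATCA (a variant bound by JUN with ATF2). Also searched for were the CArG box, CCWWWWWWGG with W for A or T, and a G4 pattern. The G4 pattern was at least 4 runs of at least 3 guanines separated by 1 to 7 bases. Over all 35116 windows, 4.95% held TGACTCA, 1.85% TGACGTCA, 2.61% TGACATCA, 1.29% a CArG box and 25.0% the G4 pattern. The sequence upstream of EGR1 (chr5:138465229-138465478, plus strand) is printed whole up to the start. Its capitals mark first the G4 pattern at positions -215 to -178 and then the CArG boxes at -105 to -96 and -83 to -74, counted from the base before the start as -1.
EGR1: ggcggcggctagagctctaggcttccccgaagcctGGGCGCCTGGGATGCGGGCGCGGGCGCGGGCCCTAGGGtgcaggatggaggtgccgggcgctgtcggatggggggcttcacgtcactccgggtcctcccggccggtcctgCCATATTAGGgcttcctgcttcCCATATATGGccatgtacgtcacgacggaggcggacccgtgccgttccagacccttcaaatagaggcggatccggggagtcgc
For JUN (chr1:58784096-58784125, minus strand) and ATF3 (chr1:212565273-212565302, plus strand) 30 bases around TGACATCA are shown, with the site in capitals. In JUND (chr19:18281804-18281833, minus strand) the capitals mark TGACGTCA. In FOSL2 (chr2:28392665-28392694, plus strand) they mark the G4 pattern.
JUN: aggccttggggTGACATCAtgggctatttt
ATF3: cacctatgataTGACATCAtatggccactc
JUND: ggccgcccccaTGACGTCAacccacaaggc
FOSL2: cggccGGGAGCCGGGGCTGGGAGGGGagag
The JUN stretch lies in an exon and the FOSL2 stretch in an intron of GENCODE 29, whose earliest starts of these genes lie further upstream, and the others lie outside the genes. FOSL2 also held TGACTCA at positions 5 to 11 after its start. The windows of FOS, FOSB and JUNB and the second window of ATF3 held none of the letters searched. Sequence more than 250 bases before a start was not searched, so these genes may hold such sites further upstream. A match describes the sequence only, and no binding was measured.

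In Ctrl 1 gene, FOSL1, stood above all other AP-1 genes. Levels between genes are compared as mean count per kb of merged exons, computed from the authors' deposited table for SAHA. FOSL1 (chromosome 11, 65892049 to 65900573) was highest at 4582 per kb. JUN (chromosome 1, 58780788 to 58784327) followed at 1170.3, JUND (chromosome 19, 18279760 to 18281622) at 983, JUNB (chromosome 19, 12791496 to 12793315) at 694 and FOSL2 (chromosome 2, 28392448 to 28417312) at 632. A lower tier held BATF3 (chromosome 1, 212686418 to 212699985) at 81.3, EGR1 (chromosome 5, 138465490 to 138469315) at 66.1 and ATF3 (chromosome 1, 212565334 to 212620777) at 60.1. FOS (chromosome 14, 75278774 to 75282230) stood at 13.8 and FOSB (chromosome 19, 45467995 to 45475179) at 3.02. Positions are those of GENCODE 29 on GRCh38, where all 10 are protein-coding and JUN, JUNB and JUND are single-exon genes. The steps from FOSL1 to JUN (1.97 on the log2 scale), from FOSL2 to BATF3 (2.96), from ATF3 to FOS (2.12) and from FOS to FOSB (2.19) exceeded a 95% interval built from the standard errors. Next neighbours in the order within the tiers did not differ beyond that error, for example JUN and JUND, 0.25 apart (SE 0.30). Of the merged exons of JUNB, 14.2% overlap the gene HOOK2 on the other strand, and the sources used here do not say whether reads were counted by strand.

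**Figure D1:**
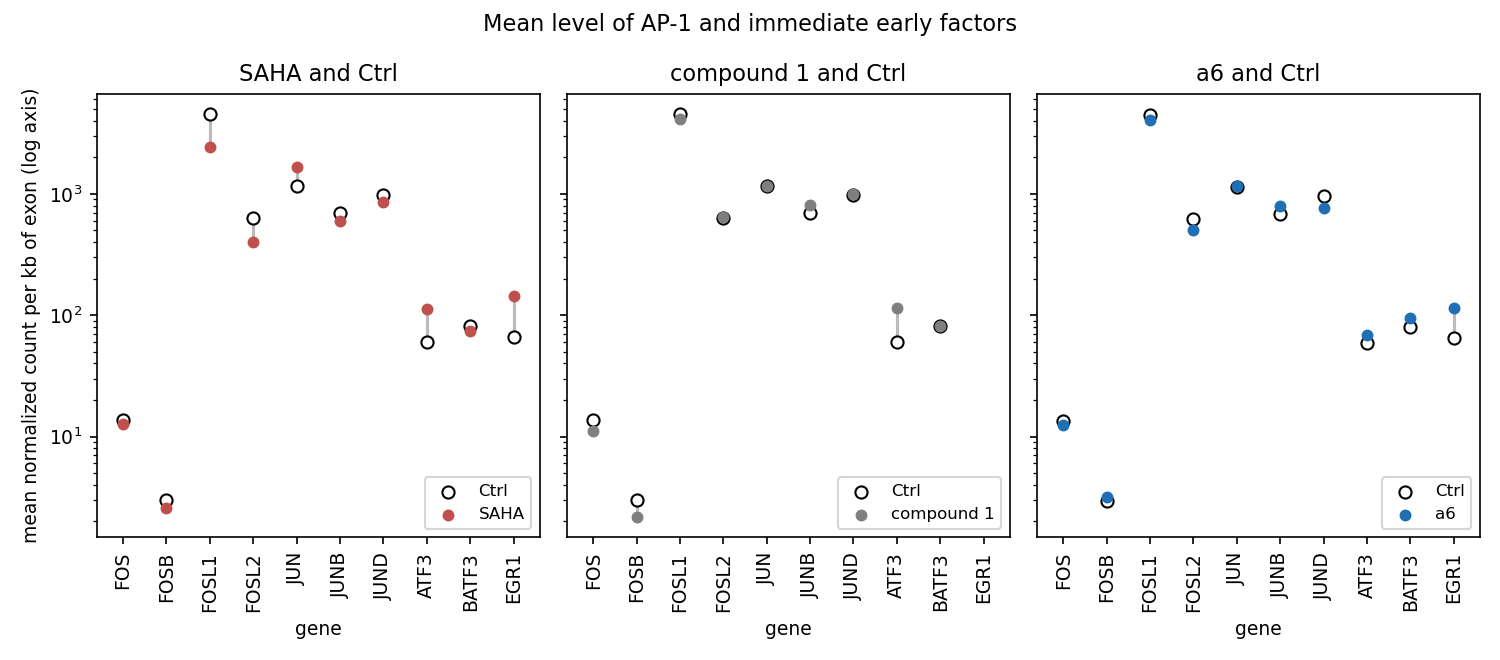
Mean normalized count per kb of merged exons (log axis) of each gene in Ctrl (open circles) and with the compound (filled circles), in the tables for SAHA, compound 1 and a6, computed from means and fold changes with no error shown. FOSL1 is the highest gene in every panel and FOSB the lowest, and EGR1 has no point for compound 1.

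With SAHA the FOS subunit FOSL1 fell to 0.534 of its Ctrl level, and it was the only one of the 10 genes past the test, an adjusted p under 0.05. Computed from the authors' deposited table, Ctrl had a mean count of 8647 and SAHA one of 4622. FOSL1 fell by 0.90 on the log2 scale (SE 0.28, adjusted p = 0.0244, DESeq2, the authors' deposited table), and the 95% interval ran from 0.364 to 0.785 of Ctrl. By the authors' deposited table, 4.59% of genes whose mean count reached 50 had a lower value. So 1 of 10 fell and 0 rose with SAHA. In the authors' deposited table the share of all 18534 genes that passed was 7.55%, with 3.02% lower and 4.53% higher. In RNA from a whole culture, fewer cells with the transcript and less of it per cell cannot be told apart. The call ended at an adjusted p under 0.01 and with a 2-fold limit added, and removal of the trend of fold change on transcript GC content, which is 60.0% for FOSL1, left it at -0.72 with an adjusted p of 0.114. That removal gave 837 higher and 359 lower genes over the whole table, against 839 and 560 as deposited.

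FOSL2, the other FOS subunit with a high level, was lower with SAHA without passing. Its mean count was 4524 in Ctrl and 2868 with SAHA, computed from the authors' deposited table. The log2 fold change of FOSL2 was -0.66 (SE 0.25, adjusted p = 0.0974, DESeq2, the authors' deposited table), and its unadjusted p was 0.00969. At this standard error FOSL2 would have passed only with a change of at least 0.74 on the log2 scale. The signal-induced subunits FOS and FOSB were low in both groups. FOS had mean counts of 44.7 in Ctrl and 41.2 with SAHA, and FOSB 16.8 and 14.4, computed from the authors' deposited table. Their 95% intervals on the log2 scale, from -1.05 to 0.81 for FOS and from -1.56 to 1.12 for FOSB, leave room for changes of 2-fold.

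None of the JUN subunits passed with SAHA, and each had a 95% interval that includes 0. JUN, the main partner of FOS subunits, had a mean count of 4143 in Ctrl and 5933.5 with SAHA, computed from the authors' deposited table. Its log2 fold change was 0.52 (SE 0.27, adjusted p = 0.285, DESeq2, the authors' deposited table). JUNB and JUND, which bind the same site and can restrain JUN, were at -0.22 (SE 0.43) and -0.21 (SE 0.33) in the authors' deposited table. With the GC trend removed JUNB and JUND were above 0, at 0.0607 and 0.17. JUN was then at 0.65 (SE 0.27, unadjusted p = 0.0159, adjusted p = 0.146, z test on the deposited standard error). Its 95% interval in that setting lies above 0, and again none of these genes passed. Of the 10 genes, JUND and BATF3 had 95% intervals within 2-fold of Ctrl on both sides.

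ATF3, a stress-induced AP-1 partner that often represses, stood higher with SAHA without passing. Its mean count was 243 in Ctrl and 458 with SAHA, computed from the authors' deposited table. The log2 fold change of ATF3 was 0.92 (SE 0.48, adjusted p = 0.285, DESeq2, the authors' deposited table). BATF3, a leucine zipper protein best known in dendritic cells, was at -0.12 (SE 0.33) in the authors' deposited table. EGR1, a zinc finger factor and a target of serum response factor, had mean counts of 207 in Ctrl and 454 with SAHA, computed from the authors' deposited table. The log2 fold change of EGR1 was 1.13 (SE 1.05, adjusted p = 0.657, DESeq2, the authors' deposited table). It was the highest value of the 10 and also the least certain, since EGR1 would have passed only with a change of at least 3.05 on the log2 scale. Over the 10 genes the median log2 fold change was -0.17, against -0.01 over all genes of the authors' deposited table, with 3 of the 10 above 0.

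**Figure D2:**
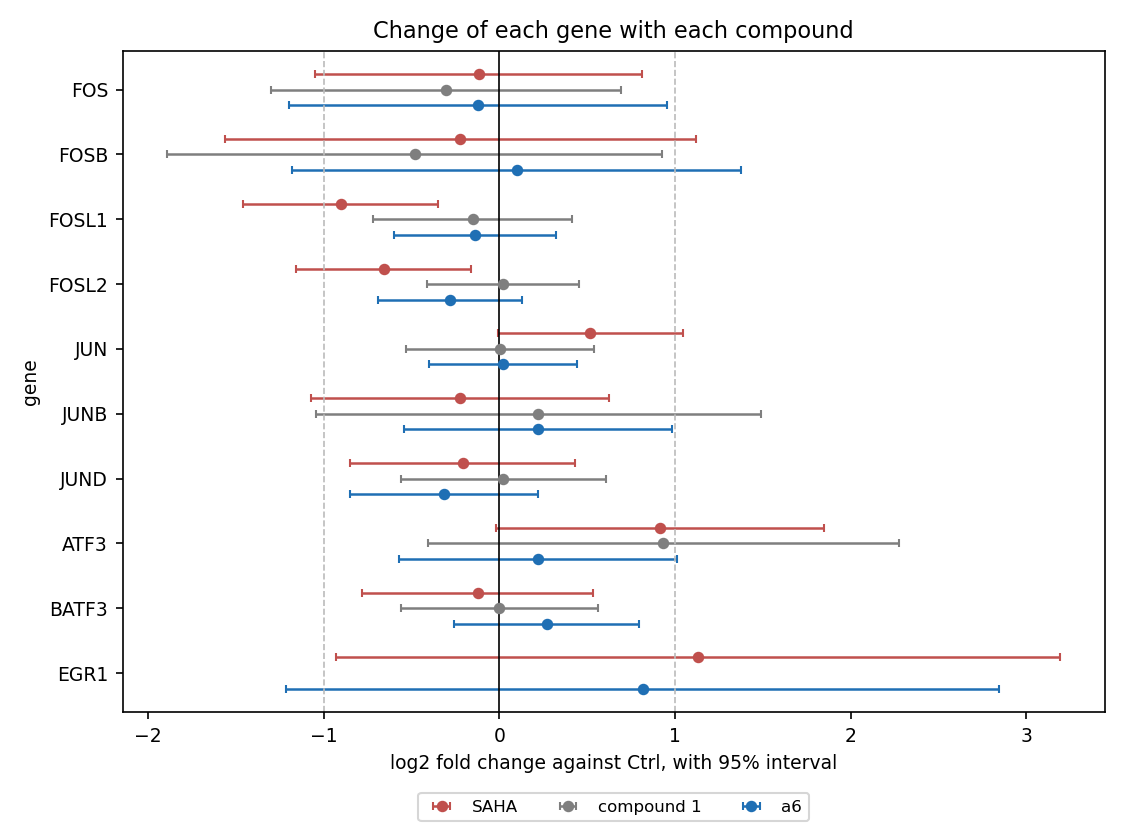
Log2 fold change of each gene against Ctrl with SAHA, compound 1 and a6 (points), with 95% intervals (bars) from the standard errors, solid line at 0 and dashed lines at a change of 2-fold. The interval of FOSL1 with SAHA, from -1.46 to -0.35, and that of FOSL2 with SAHA, from -1.16 to -0.16, are the ones that do not include 0.

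The balance of FOS to JUN subunit transcripts is given as a description of means, which carries no error and no test. In Ctrl the 4 FOS subunits summed to 5231 mean counts per kb and the 3 JUN subunits to 2847, computed from the authors' deposited table for SAHA. With SAHA the sums were 2865 and 3121, so the ratio of FOS to JUN subunits was 1.84 in Ctrl and 0.918 with SAHA. FOSL1 made up 87.6% of the FOS subunit sum in Ctrl and 85.5% with SAHA. JUN made up 41.1% of the JUN subunit sum in Ctrl and 53.7% with SAHA. The ratio of FOS to JUN subunits was 1.84 in Ctrl and 1.60 with compound 1, and 1.84 in Ctrl and 1.69 with a6, each within its own table. FOSL1 remained the largest part of the FOS sum in all 4 groups, with 86.3% for compound 1 and 88.6% for a6.

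**Figure D3:**
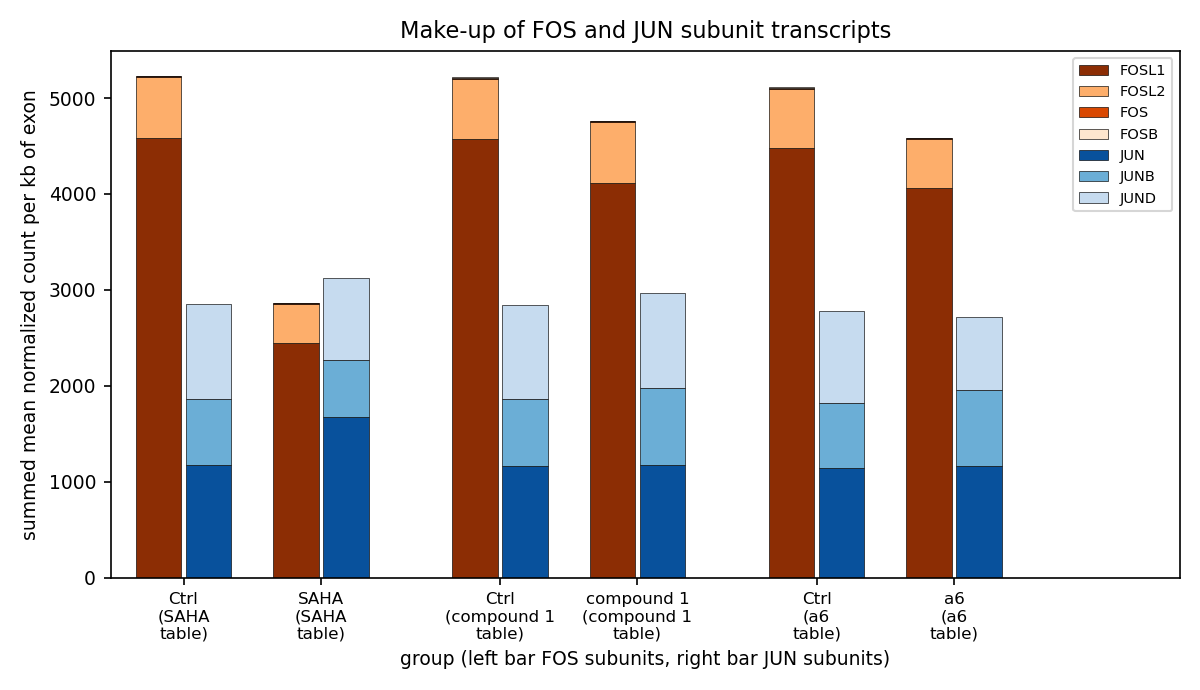
Summed mean count per kb of merged exons for the FOS subunits (left bar of each pair) and the JUN subunits (right bar), split by gene, in Ctrl and with each compound as computed from each table, with no error shown. With SAHA the FOS bar, at 2865, is below the JUN bar, at 3121, while it is above it in every other group.

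With compound 1 none of the 9 genes measured passed, and 0 reached an unadjusted p under 0.05 (DESeq2). Over all 27126 genes 0% passed and 0.199% had an unadjusted p under 0.05 in the authors' deposited table. That share is far below the 0.05 that unchanged genes alone would be expected to give, so this test called few genes of any kind. The counts of 0 therefore do not show that the 9 genes were unchanged. Genes of lower count were kept for compound 1, with a median mean count of 23.0, against 147 for SAHA and 231 for a6. The shares of all genes thus cover unlike sets of genes between compounds. FOSL1 was at -0.15 (SE 0.29) in the authors' deposited table, with mean counts of 8621 in Ctrl and 7756 with compound 1. FOSL2, JUN, JUND and BATF3 lay between -0.001 and 0.02 in the authors' deposited table. With FOSL1 these are the 5 genes whose 95% intervals stayed within 2-fold of Ctrl, so larger changes of them lie outside the intervals. ATF3 was the highest at 0.93 (SE 0.68) in the authors' deposited table, with mean counts of 242 in Ctrl and 462 with compound 1. That is close to its value with SAHA, although both rest on the same Ctrl libraries. JUNB was at 0.22 (SE 0.65), FOS at -0.30 (SE 0.51) and FOSB at -0.48 (SE 0.72) in the authors' deposited table. The median over the 9 genes was 0.003 on the log2 scale, against 0.01 over all genes.

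With a6 none of the 10 genes passed, and 0 had an unadjusted p under 0.05 (DESeq2). In the authors' deposited table the share of all 15255 genes that passed was 0.583%, with 0.243% higher and 0.341% lower, and 7.41% reached an unadjusted p under 0.05. FOSL1 was at -0.14 (SE 0.23) in the authors' deposited table, with mean counts of 8447 in Ctrl and 7667 with a6. FOSL2 was at -0.28 (SE 0.21), the smallest adjusted p of the 10 at 0.889 in the authors' deposited table (DESeq2). JUN was at 0.02 (SE 0.21), JUND at -0.32 (SE 0.27) and JUNB at 0.22 (SE 0.39) in the authors' deposited table. The 95% intervals of FOSL1, FOSL2, JUN, JUNB, JUND and BATF3 stayed within 2-fold of Ctrl, 6 of the 10. ATF3 was at 0.22 (SE 0.40) and BATF3 at 0.27 (SE 0.27) in the authors' deposited table. EGR1 was again the highest and the least certain, at 0.82 (SE 1.04) in the authors' deposited table, with mean counts of 203 in Ctrl and 357 with a6. FOS and FOSB, at -0.12 (SE 0.55) and 0.10 (SE 0.65) in the authors' deposited table, had intervals that reach past 2-fold. The median over the 10 genes was 0.06 on the log2 scale, against -0.03 over all genes.

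The compounds were compared with each other at their shared dose and time by a two-sided z test on the difference of log2 fold changes, with p adjusted over all genes of each pair. In 3 pairs and 28 tests none of the 10 genes passed. Over all genes 0.256% passed for a6 against SAHA, 1.06% for SAHA against compound 1 and 0.0328% for a6 against compound 1. At an unadjusted p under 0.05 the counts were 1 of 10, 1 of 9 and 0 of 9, against 5.56%, 7.26% and 1.46% of all genes. FOSL1 stood 0.76 higher with a6 than with SAHA on the log2 scale (SE 0.37, 95% interval 0.04 to 1.49, adjusted p = 0.816, z test). The same comparison allowing for the shared Ctrl libraries by an error correlation of 0.5 gave an adjusted p of 0.0767. FOSL2 stood 0.68 lower with SAHA than with compound 1, at -0.68 (SE 0.34, adjusted p = 0.663, z test), and with that correlation its adjusted p was 0.0707. For FOSL1 the difference of SAHA minus compound 1 was -0.75 (SE 0.40, 95% interval -1.54 to 0.04, adjusted p = 0.745, z test). With the error correlation of 0.5 its adjusted p was 0.106. So FOSL1 passed the test with SAHA and not with a6 or compound 1, and a difference between the compounds was not shown.

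Between a6 and compound 1 the differences were small for FOSL1 and JUN, at 0.01 (95% interval -0.72 to 0.74) and 0.02 (-0.66 to 0.70). The interval of FOSL1 thus leaves out a difference of 2-fold between these compounds, and so does that of JUN. FOSL2 was the third such gene, at -0.30 (-0.90 to 0.29). For ATF3 the interval of a6 minus compound 1 was -2.27 to 0.85 and for EGR1 that of a6 minus SAHA was -3.21 to 2.58, so differences of several fold were not detectable for these genes. The labels name a6 as the dual-targeting compound, and the sources used here give no structure for compound 1 or a6.

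**Figure D4:**
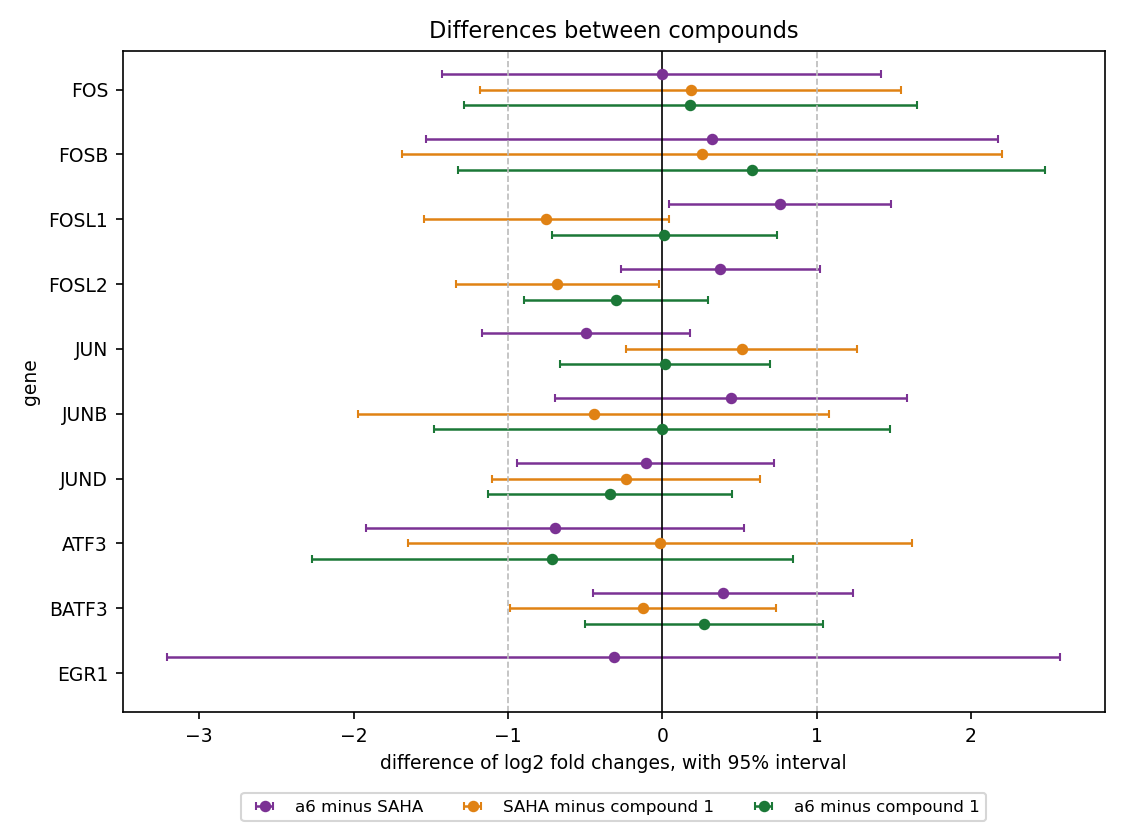
Difference of log2 fold changes between pairs of compounds for each gene (points) with 95% intervals (bars) under independent errors, solid line at 0 and dashed lines at 2-fold. The interval for FOSL1 in a6 minus SAHA starts at 0.04 and that for FOSL2 in SAHA minus compound 1 ends at -0.02, and neither gene passed after adjustment.

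EGR1, JUNB and ATF3 were measured less precisely than other genes of their level. The standard error of each gene was divided by the median standard error of genes within 1.5 times its mean count in the authors' deposited table. With SAHA this ratio was 3.36 for EGR1, 1.53 for ATF3 and 1.52 for JUNB, and it was over 1.5 in 0.594% of all genes whose mean count reached 10. With compound 1 it was 2.55 for JUNB and 2.32 for ATF3, against 8.11% of all such genes over 1.5. With a6 it was 3.69 for EGR1 and 1.65 for JUNB, against 0.966%. FOSL1, FOSL2 and JUN lay between 0.865 and 1.16 in all 3 tables. FOS and FOSB, whose counts are low, lay between 1.00 and 1.21. The standard error comes from a fit that shares information between genes, and which libraries carry the spread is not given in the tables.

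**Figure D5:**
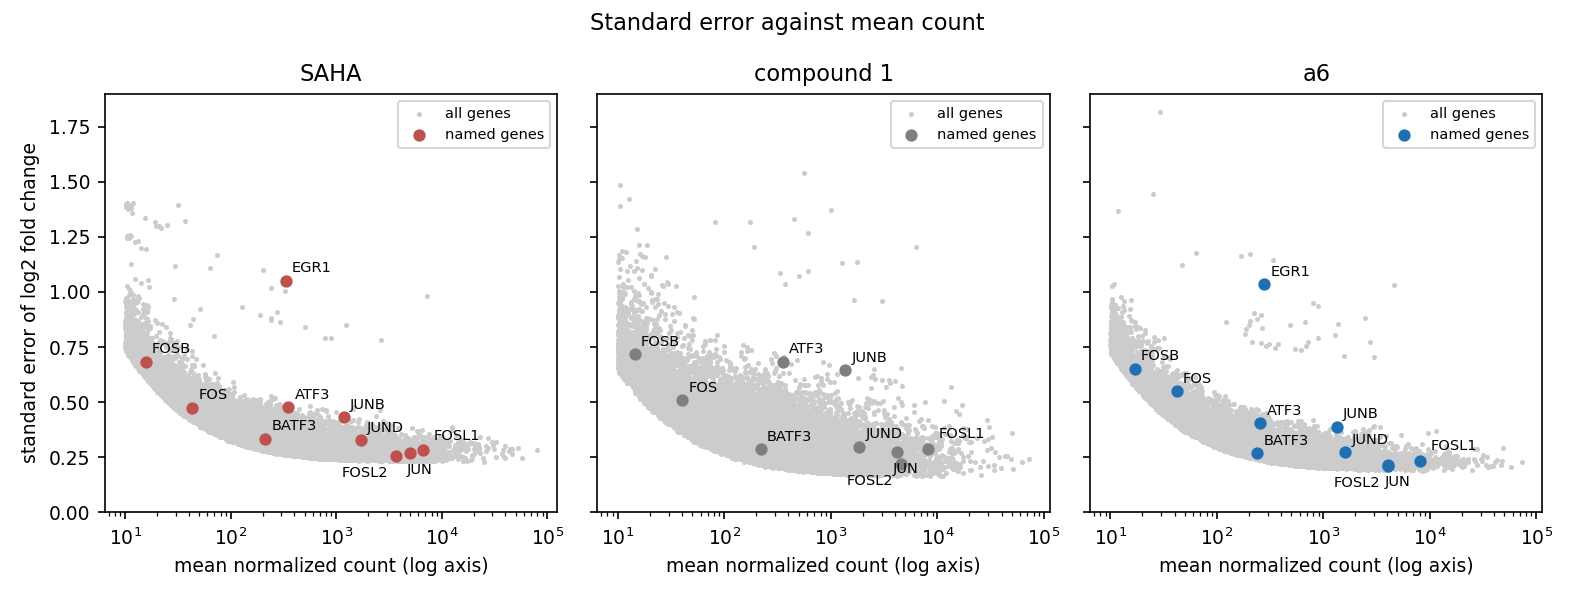
Standard error of the log2 fold change against mean count (log axis) for all genes whose mean count reached 10 (grey) and the 10 genes (coloured, 9 for compound 1), by table. EGR1 lies far above the band of genes of like count with SAHA and a6, and JUNB and ATF3 lie above it with compound 1.

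The rest of the pathway was followed in 5 lists chosen by function. Among 21 other immediate early genes 19 were measured with SAHA, 21 with compound 1 and 16 with a6, and 0 rose and 0 fell in each. Their median log2 fold changes were -0.02, 0.14 and -0.08, against -0.01, 0.01 and -0.03 over all genes. Of all genes 7.55%, 0% and 0.583% passed after adjustment with SAHA, compound 1 and a6. At an unadjusted p under 0.05 the counts in this list were 3 of 19, 0 of 21 and 0 of 16 (DESeq2). The shares of all genes there were 18.4%, 0.199% and 7.41%. The 3 genes with SAHA were EGR2, NR4A3 and ARC, all above 0. Their mean counts were 1.77, 1.79 and 1.82 in Ctrl and 8.24, 9.36 and 13.1 with SAHA. No gene measured with SAHA had a mean count below 2.44, so these 3 were measured there only through their level with SAHA. The most abundant genes of the list were CCN1, a matricellular protein, at -0.17 (SE 0.32) for SAHA, and IER3, a survival factor, at -0.19 (SE 0.39), in the authors' deposited table. With compound 1 they were at -0.07 (SE 0.39) and 0.08 (SE 0.57), and with a6 at -0.27 (SE 0.29) and -0.40 (SE 0.37), by the authors' deposited table. DUSP1, a phosphatase that ends MAP kinase signalling, had standard errors 1.66, 4.53 and 3.41 times those of genes of like count with SAHA, compound 1 and a6.

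Upstream of AP-1, 0 of 21 RAS, RAF and MAP kinase genes and ternary complex factors rose or fell with any compound, with medians of -0.13 for SAHA, 0.05 for compound 1 and -0.04 for a6. MAP2K2, a kinase that activates ERK, was at -0.34 (SE 0.31) for SAHA in the authors' deposited table, and the stress kinase gene MAPK14 at -0.08 (SE 0.24). HRAS, the gene of an upstream GTPase, was at 0.02 (SE 0.23) for a6 in the authors' deposited table. Of 17 feedback inhibitors, all measured in each table, 0 rose and 0 fell, with medians of -0.11, 0.13 and -0.12. In this list, which shares DUSP1 with the first, the ERK phosphatase gene DUSP5 was at 0.21 (SE 0.38) and PHLDA1 at -0.25 (SE 0.27) for SAHA in the authors' deposited table. For a6 DUSP5 was at 0.09 (SE 0.35) and PHLDA1 at -0.37 (SE 0.23) by the authors' deposited table. In these lists 1, 0 and 0 kinase genes and 1, 0 and 1 inhibitors had an unadjusted p under 0.05 with SAHA, compound 1 and a6 (DESeq2). The shares of all genes were 18.4%, 0.199% and 7.41% in the same order, and 7.55%, 0% and 0.583% passed after adjustment. Counts of 0 beside such shares do not show that a list was unchanged.

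Among 20 other leucine zipper partners, 18 were measured with SAHA, of which 1 rose and 2 fell, with a median of -0.33. Over all genes 4.53% rose and 3.02% fell with SAHA, and a test of the list against them was not run. At an unadjusted p under 0.05 there were 4 of the 18, against 18.4% of all genes (DESeq2). CEBPD, a C/EBP factor of acute phase responses, fell by 2.22 (SE 0.46, adjusted p = 0.000112, DESeq2, the authors' deposited table). The stress response factor gene ATF5 fell by 1.74 (SE 0.32, adjusted p = 7.58e-06, DESeq2, the authors' deposited table). BATF2, an interferon-induced relative of BATF3, rose by 1.45 (SE 0.48, adjusted p = 0.0371, DESeq2, the authors' deposited table), at a mean count of 41.8, and lost its call at an adjusted p under 0.01. With compound 1 (19 measured) and a6 (18 measured) 0 rose and 0 fell, with 0 and 1 at an unadjusted p under 0.05 (DESeq2) and medians of 0.14 and -0.12. Of all genes 0.199% and 7.41% reached that unadjusted p with compound 1 and a6, and 0% and 0.583% passed. CEBPB, the most abundant of the list after NFE2L1, was at 0.05 (SE 0.60) for compound 1 and -0.41 (SE 0.39) for a6 in the authors' deposited table.

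Of 25 known AP-1 target genes 23 were measured with SAHA, of which 4 rose and 0 fell, with a median of -0.06 and 11 of the 23 above 0. Over all genes 4.53% rose and 3.02% fell with SAHA, and 1 of the 4, MMP3, owes its place in the table to its level with SAHA. At an unadjusted p under 0.05 there were 9 of the 23, against 18.4% of all genes (DESeq2). Among these 9, the cytokine genes IL6 and IL11, the membrane protease gene MMP14 and the angiogenic factor gene VEGFA were below 0 without passing, and were named after their values were seen. Their log2 fold changes were -2.21 (SE 0.86) for IL6, -0.76 (SE 0.31) for IL11, -0.79 (SE 0.31) for MMP14 and -0.71 (SE 0.35) for VEGFA in the authors' deposited table. The standard error of IL6 was 2.72 times that of genes of like count. The stromelysin gene MMP3 rose by 4.48 (SE 0.94) in the authors' deposited table, with mean counts of 1.37 in Ctrl and 30.5 with SAHA. A gene so low in Ctrl enters the SAHA table, whose lowest mean count is 2.44, only when it is higher with SAHA. IL1A, the gene of a cytokine, rose by 1.92 (SE 0.51) in the authors' deposited table. The interstitial collagenase gene MMP1 rose by 1.48 (SE 0.42) and the EGF receptor ligand gene HBEGF by 0.80 (SE 0.26) in the authors' deposited table, both named after their values were seen, and HBEGF lost its call at an adjusted p under 0.01. Among markers of other cell types, the fibroblast gene LUM and the endothelial gene VWF rose with SAHA (adjusted p = 7.58e-06 and 0.00121, DESeq2, the authors' deposited table). LUM had a mean count of 0.378 in Ctrl and 49.3 with SAHA, and VWF 1.41 and 23.0, so both were in the table only through their level with SAHA. LUM was the 1 of 3 fibroblast markers measured. The 2 of 3 endothelial markers measured summed to 5.25 in Ctrl and 31.6 with SAHA, where PECAM1 did not pass. The 1 of 4 haematopoietic markers measured, CD68, was at 7.48 and 4.29 and did not pass. For a6, 0 of these markers were measured. Their part in the result was not tested. With compound 1 (24 measured) and a6 (22 measured) 0 target genes rose and 0 fell, with 0 and 3 at an unadjusted p under 0.05 (DESeq2) and medians of 0.13 and -0.24. Of all genes 0.199% and 7.41% reached that unadjusted p with compound 1 and a6, and 0% and 0.583% passed. AXL, a receptor tyrosine kinase gene and the most abundant target, was at -0.07 (SE 0.19) for compound 1 and -0.08 (SE 0.21) for a6 in the authors' deposited table.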

How the data were processed

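RNA-seq of 12 libraries in 4 groups was analysed from 3 comparison tables. Cutadapt, DESeq2 and build GRCh38 (hg38) are listed, without a role, in the submitters' processing notes; aligner and counter: not given in the sources used here. Per the file headers, each deposited table holds the mean normalized count (a signal), the log2 fold change and its SE, the Wald score, and the p-value raw and adjusted. The 6 lists of changed genes and 6 of G4-related genes were used for names, and held 0 of the 10 genes. No other column was used. Calls follow the authors' Wald test (DESeq2), adjusted p below 0.05. Computed here, with Python 3.11.15, scipy 1.17.1 and statsmodels 0.14.6, were group means (equal groups assumed), 95% intervals, counts per kb of GENCODE 29 merged exons, and z tests between compounds from the summed squared standard errors, which were tested on simulated data. The shared Ctrl libraries would make the z tests conservative. The error of a level was taken as the standard error divided by the root of 2. The genes and lists were chosen with earlier results of these data known. Named are all 10 genes, from every list at most 2 genes per direction by smallest adjusted p (the 2 most abundant where none passed), and the 5 genes nearest to FOSL1. A gene that this rule names among the AP-1 targets is not reported here. Alternatives were an adjusted p under 0.01, a 2-fold limit, a mean count of at least 10, centring, removal of a lowess trend on GC content (share 0.3), the authors' lists and an error correlation of 0.5. GC content, from the longest GENCODE transcript, was found for 95.8%, 94.0% and 96.7% of SAHA, compound 1 and a6 genes.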

Additional observations from a re-analysis of the deposited data

How the results depend on the processing

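The call on FOSL1 with SAHA held with a mean count of at least 10 and after centring on the median fold change. With an adjusted p under 0.01, a 2-fold limit, the authors' lists of changed genes or the GC trend removed, 0 of the 10 genes were called. In the last of these FOSL1 was at -0.72 (adjusted p = 0.114, from the deposited standard error), still below 0. The others leave its fold change as it is, so they could not alter its direction. The counts of 0 for compound 1, a6 and the 3 pairs of compounds stayed at 0 under every alternative run. Only centring and removal of the GC trend alter a fold change, so under the other alternatives the direction could not change. A stricter threshold also cannot add a call. Of 314 single-gene values 305 kept direction and side of the threshold, 4 were FOSL1 losing its call and 5 changed sign. These were JUNB at 0.0607 and JUND at 0.17 with SAHA when the GC trend was removed, and, after centring, JUN at -0.00685 with compound 1, ATF3 at 0.0102 for SAHA minus compound 1 and JUNB at 0.0467 for a6 minus compound 1; none was called.

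The 7 calls in the related lists with SAHA became 5 at an adjusted p under 0.01. Over all genes the SAHA count went from 1399 to 820 at an adjusted p under 0.01, and the a6 count from 89 to 36. The authors' lists held 1936 genes for SAHA, 398 for a6 and 43 for compound 1, against 1399, 89 and 0. With the error correlation of 0.5 the pairs a6 and SAHA, SAHA and compound 1, and a6 and compound 1 had 540, 987 and 44 differences against 39, 197 and 5. Under independent errors and an adjusted p under 0.01 they had 16, 87 and 3. No paired analysis was possible because the tables hold no values per library; for the same reason leaving out each replicate was not run. Depth per library is unknown.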

Other observations

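EGR1 shared its missing row for compound 1 with few other genes. Of 11774 genes whose mean count reached 50 for both SAHA and a6, 4 had no row in the compound 1 table used here, and they were EGR1, CHAC1, DDIT3 and CXCL2. CHAC1 and DDIT3 are stress response genes downstream of ATF4, and CXCL2 is a chemokine gene induced by NF-kB. The same count was 0 of 11756 for the SAHA table and 0 of 11807 for the a6 table. In the authors' deposited table for SAHA the standard errors of these genes were 1.05 for EGR1, 0.89 for CHAC1, 1.01 for DDIT3 and 0.44 for CXCL2. For a6 they were 1.04, 0.50, 0.37 and 0.83 in the same order, in the authors' deposited table. These genes were picked out after their values were seen, and the cause was not tested.

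The genes whose 3 log2 fold changes lay nearest to those of FOSL1, out of 11696 whose mean count reached 50 in every table, were ATN1, ENO3, CBR3-AS1, PFN1 and PARP10. Their distances were 0.044 to 0.062 on the log2 scale, and the median over all genes compared was 0.910. They were picked for the smallest distances, so lying below that median follows from the choice. The standard errors of FOSL1 itself, 0.28 with SAHA, 0.29 with compound 1 and 0.23 with a6, are larger than these distances. The 3 fold changes also share their Ctrl libraries.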
